A study of Mus musculus with 3 samples.

Results

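In 734 of 20808 mouse genes (3.53%), the 3′ UTR of the longest transcript was split by at least 1 intron and none of its pieces overlapped a coding sequence (CDS) on the same strand. Each piece is called a segment here, and the 734 genes held 1548 of them. A gene was taken when its longest transcript, among those with reads tabulated for both UTRs and the CDS, had 2 or more 3′ UTR segments. No read count entered this choice. A further 885 genes had a split 3′ UTR that overlapped a CDS and are not described, and the 18120 genes with 1 unsplit 3′ UTR segment free of CDS overlap served for comparison.

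Ribosome footprints are pieces of mRNA shielded by a ribosome while nuclease digests the rest. They were sequenced from primary cortical neurons of the mouse in 3 libraries. Groups were taken from the sample titles and the labelled treatments. The free-text descriptions of the same 3 samples name other material instead, input and pulldown fractions of depolarized neurons, and the labels alone do not settle this conflict. The methods of the study describe untreated, Chx and Harr libraries. In these data the 5′ UTR to CDS ratio of the split genes was higher in the library titled Harr, by a median log2 odds ratio of 2.54 (2.35 to 2.63) against Chx and 3.27 (3.14 to 3.48) against WT. By title and treatment, the WT library came from neurons that received no drug. The Chx library came from neurons given cycloheximide, which arrests elongating ribosomes, for 2 min. The Harr library came from neurons given harringtonine over 2 min, followed by a short cycloheximide pulse. Harringtonine blocks new ribosomes at the start codon, and ribosomes further along can finish. Each library pooled 3 dishes. Since cycloheximide at 100 µg per ml was also in the buffers used to rinse and lyse the cells, the WT library is not free of it. There was 1 library per treatment. All differences below therefore describe these 3 libraries, have no replicate check and carry intervals only for counting error or the spread over genes. The libraries held 35722483 (Chx), 9754412 (Harr) and 30219197 (WT) reads. Neuronal markers were abundant, with 4 genes summing to 3312 (Chx), 3320 (Harr) and 3514 (WT) CPM. CPM is a count scaled to a library of 1e+06 reads. Markers of oligodendrocytes summed to 2.15 to 6.52 CPM, with Mog and Mobp at 0 in all 3 libraries, and those of microglia to 1.44 to 2.80 CPM. The 4 astrocyte markers all had reads and summed to 195 (Chx), 78.8 (Harr) and 213 (WT) CPM. The part of astrocytes in the results below was not tested.

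Most genes keep the stop codon in the last exon. When an intron follows the stop codon, splicing leaves an exon junction complex on the mRNA just upstream of the junction, and ribosomes that terminate before reaching it cannot remove it. If the junction lies more than about 55 nucleotides (nt) past the stop codon, the complex can recruit UPF1 and set off nonsense-mediated decay (NMD). Complexes closer to the stop codon can be displaced by the terminating ribosome. In neurons the best known natural NMD target of this kind is Arc, and several RNA-binding proteins limit their own level through splicing within the 3′ UTR.

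The segment next to the stop codon, called the first segment, was short. Its median length was 20 nt (quartiles 8 and 37.75 nt, range 1 to 4213 nt), whereas the later segments together had a median of 724 nt. The first segment was 1 to 24 nt in 442 genes, 25 to 55 nt in 173 and over 55 nt in 119, so that in 83.8% of the genes the first junction lay within 55 nt of the stop codon. The transcript was annotated as protein coding in 650 genes and as an NMD target in 82. Of the protein coding transcripts 54 had a first segment over 55 nt, against 64 of the NMD transcripts. In 691 genes the 3′ UTR had 2 segments, and in 43 it had 3 to 8. The median CDS length was 979.5 nt in the split genes and 1188 nt in the unsplit ones. An exon of another gene overlapped the 3′ UTR in 116 of the split genes.

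The sequences around the stop codon show how little of the 3′ UTR can lie before the intron; those shown all have 1 to 24 nt there. They are 30-nt windows of the spliced GENCODE M21 transcripts, 5′ to 3′, with the coordinates of the first segment in mm10. Capitals mark the stop codon and all 3′ UTR bases up to the first exon junction, and the lower case letters after them lie in the next exon.
Gria2 (chr3:80689103-80689105, minus strand, first segment 3 nt): aaaattTAGGGGatgaccttgagcgctgcc
Syp (chrX:7648884-7648887, plus strand, 4 nt): cagatgTAATCTGgtcagtgaagcccacga
Srsf2 (chr11:116852021-116852027, minus strand, 7 nt): tcttccTAAGAAAATGatgaatcggcaagc
Maged1 (chrX:94535860-94535867, minus strand, 8 nt): gttgagTAAATTGTCAGatactgctcatca
Stx4a (chr7:127848653-127848667, plus strand, 15 nt): gttggaTAATGTCACATGTTCTTGgcattg
Hnrnpa2b1 (chr6:51463411-51463431, minus strand, 21 nt): agatatTAAGCTTCTTCCTACTTACCATGG
Hnrnpdl (chr5:100036104-100036124, minus strand, 21 nt): ccctacTAAAGGAGGACGCTGGGAGAGCAG

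In the genes with a long first segment the window ends before the junction. Capitals mark only the stop codon in these 4, which are shown because their first segments held the reads described below, or, for Arc, hardly any.
Arc (chr15:74670565-74671181, minus strand, first segment 617 nt): cctgaaTAGaggggccagcccagggtcccc
Gdap1l1 (chr2:163453928-163454228, plus strand, 301 nt): tacatcTAGagctgggctggggcctggtgt
6330403K07Rik (chr11:71032489-71033036, minus strand, 548 nt): cttgccTAAgtggccagggccccgacgggg
Rhof (chr5:123117334-123119429, minus strand, 2096 nt): ctgctgTGAccctggggacagagggcctga

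Stop codon use differed little from that of unsplit genes. Among the 730 split genes whose transcript sequence could be read, 45.8% ended in TGA (Wilson 95% interval 42.2 to 49.4), 31.2% in TAA (28.0 to 34.7) and 23.0% in TAG (20.1 to 26.2). The shares in 18022 unsplit genes were 48.9%, 28.3% and 22.8%, inside those intervals. In the class with a first segment of 1 to 24 nt, the base after the stop codon was A in 36.3% (31.9 to 40.9), above the 28.9% of the unsplit genes. It was A in 25% (19.1 to 32.0) of the class of 25 to 55 nt, in 23.9% (17.1 to 32.4) of the class over 55 nt and in 31.6% (28.4 to 35.1) of all split genes, 3 intervals that hold the unsplit value. T, at 13.4% (10.5 to 16.9), and C, at 17.7% (14.4 to 21.5), stood lower in the class of 1 to 24 nt than in unsplit genes (18.3% and 21.6%).

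How well can reads be seen in segments this short? A read counts for the segment that holds its first base, and reads had at least 25 nt, so a read that starts in a segment of 24 nt or less must cross an exon junction. Internal coding exons, which ribosomes translate like the rest of the CDS, served as a yardstick. The 724 internal coding exons of 1 to 24 nt held 2.88% of the reads that their share of the CDS length predicts in Chx, 2.18% in Harr and 2.89% in WT. Exons of 25 to 30 nt held 24.1% (Chx), 30.5% (Harr) and 24.2% (WT), but 1 exon of Myl6 held 212 of the 551 Harr reads. Without the most read exon of each library the values were 22.7%, 18.8% and 22.7%. Exons of 31 to 40 nt held 50.4%, 117% and 53.3%, where 1 exon held 4471 of the 9120 Harr reads (59.8% without it). Those of 41 to 55 nt held 71.1%, 60.9% and 72.2%. Exons of 56 to 80 nt held 84.6%, 71.2% and 85.4%. In exons of 24 nt or less, where a read must cross a junction, reads were thus nearly absent from the counts. For the 442 genes with a first segment of 1 to 24 nt, a low count next to the stop codon is therefore not a measure of ribosomes, and first and later segments can be compared mainly in the 119 genes with a first segment over 55 nt.

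**Figure D1:**
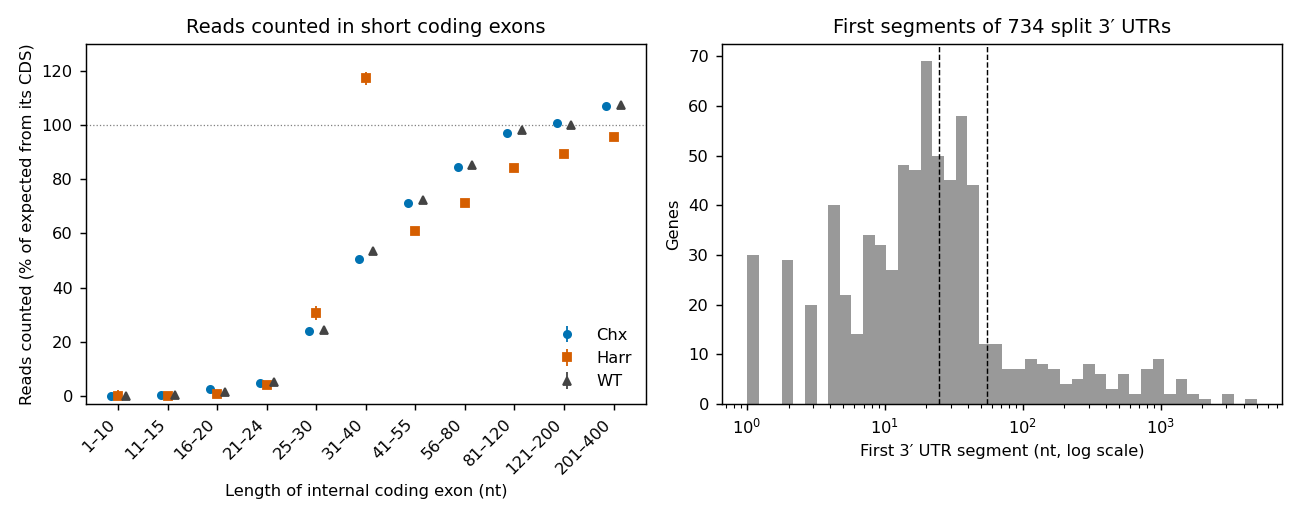
Left, reads counted in internal coding exons of each length class, as a percentage of the reads predicted from the exon's share of its CDS length, for the Chx, Harr and WT libraries, with 95% Poisson intervals. Right, number of split genes by the length of the first 3′ UTR segment on a log scale, with dashed lines after 24 and 55 nt. Exons of 1 to 10 nt held 0 reads in each library, and 442 of 734 first segments have 24 nt or less.

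Reads in the split 3′ UTRs were few. They numbered 6539 (Chx), 8599 (Harr) and 8344 (WT) over all 734 genes, against 755618, 127685 and 626232 CDS reads. No 3′ UTR read was found in any library for 326 genes, and no CDS read for 182. Genes with 10 or more 3′ UTR reads numbered 98 (Chx), 152 (Harr) and 131 (WT). The summed 3′ UTR density, in reads per nt, stood at 0.909% (Chx), 7.08% (Harr) and 1.40% (WT) of that of the CDS. For single segments, density is given as RPKM, which is reads per kb in a library scaled to 1e+06 reads. The same percentages for unsplit 3′ UTRs were 0.724%, 5.54% and 1.21%. Without the 10 genes with the most 3′ UTR reads, the split 3′ UTRs stood at 0.587%, 5.78% and 1.04%. The unsplit set was not trimmed in this way, so these last values cannot be set against it.

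In the 119 genes whose first segment exceeded 55 nt, the first segment was denser than the later ones. In Chx the first segments had 1.81 times the summed density of the later ones, with an exact 95% counting interval of 1.67 to 1.96. In WT the factor was 1.78 (1.63 to 1.93), and in Harr it was 5.12 (4.56 to 5.76). Without the 10 genes with the most 3′ UTR reads it was 3.81 times (Chx), 8.20 times (Harr) and 4.83 times (WT). The ratio was of like size, at 3.70, 7.60 and 5.24 times, in the 78 genes that met no exon of another gene and shared under 10% of their 25-nt words with transcripts of other genes. Protein coding transcripts of the class had 3.71, 5.69 and 3.83 times. The 82 annotated NMD transcripts, with first segments of any length, had 0.791 (0.679 to 0.918), 3.96 (3.34 to 4.72) and 0.894 (0.775 to 1.03) times. Of their later reads, Usp50, described below, held 717 of 819 in Chx and 740 of 841 in WT.

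Single genes of this class went mostly the same way. Of those with at least 10 3′ UTR reads in a library, the first segment was denser in 18 of 20 (Chx), 22 of 25 (Harr) and 19 of 21 (WT), with 0.5 reads added to each count. Among all split genes with such a first segment, CDS overlap allowed, the shares were 47.4% (Chx), 47% (Harr) and 48.7% (WT). Segments that overlap a CDS can hold its reads, so these shares do not describe 3′ UTR reads alone. The median log2 ratio of later to first density was −2.92 in Chx (order-statistic 95% interval over genes −4.18 to −1.14), −3.58 in WT (−4.79 to −1.78) and −3.05 in Harr (−4.68 to −2.11). Hrk, a BH3-only activator of apoptosis, counts among the genes with a denser first segment only through the added 0.5 reads, since its 67-nt first segment held 0 reads in each library.

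**Figure D2:**
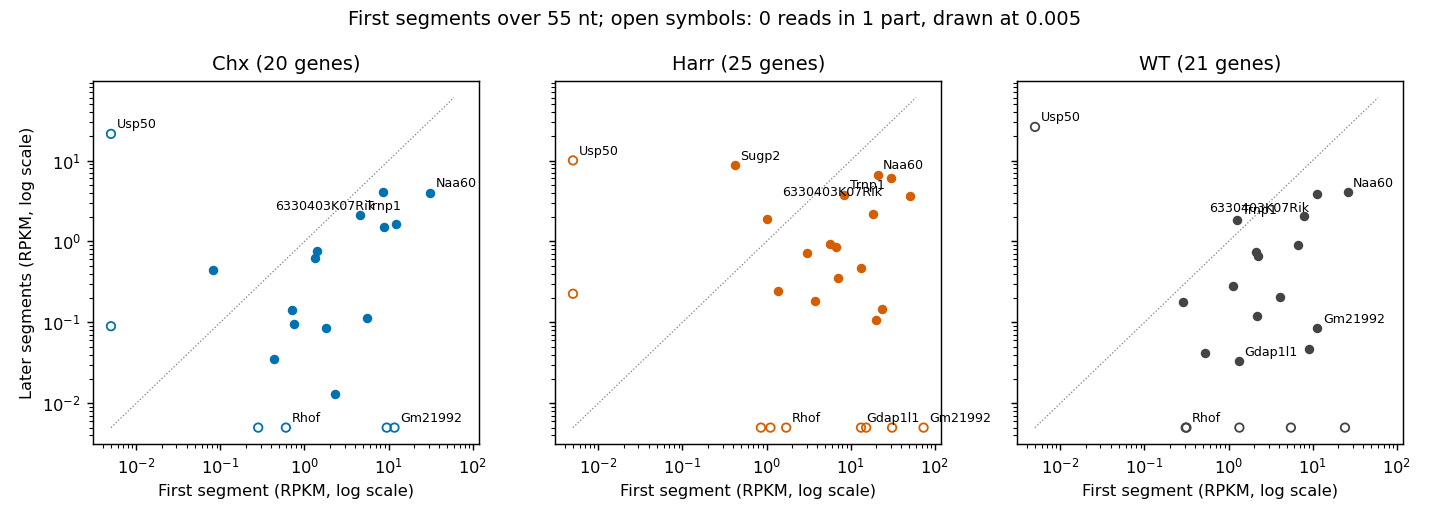
Density of the later segments (vertical axis) against that of the first segment (horizontal axis) in RPKM on log scales, for genes with a first segment over 55 nt and at least 10 3′ UTR reads in the library named above each panel. Each point is 1 gene, the dotted line marks equal density, and open symbols have 0 reads in the first or later part. Most points lie below the line, with Usp50 above it in all 3 libraries.

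Some examples show how the 3 libraries compare. The first segment of 6330403K07Rik, a gene of unassigned function, had 548 nt and held 169 (Chx), 160 (Harr) and 188 (WT) reads, while its 469 nt of later sequence held 68, 28 and 55. Its first segment was 2.13 times as dense in Chx (1.60 to 2.86) and 2.93 times in WT (2.16 to 4.03). The factor reached 4.89 in Harr (3.26 to 7.59), and the CDS held 2480, 177 and 2792 reads. Mtln, which encodes the mitochondrial micropeptide mitoregulin, held 52 (Chx), 80 (Harr) and 33 (WT) reads in a first segment of 163 nt and 24, 16 and 12 in 445 nt of later sequence. In both genes the first segment was denser in all 3 libraries, with the highest ratio in Harr, and neither has an annotated transcript that keeps the stop codon with an unsplit 3′ UTR.

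In Smim10l2a, of which 47.3% of the 25-nt words are shared with other genes, the 335-nt first segment held 145 (Chx), 60 (Harr) and 81 (WT) reads and the 1770 nt of later sequence 105, 38 and 111. Its first segment was denser by 7.30 (5.64 to 9.47), 8.34 (5.47 to 12.9) and 3.86 (2.86 to 5.18) times. In Naa60, which encodes an N-terminal acetyltransferase of the Golgi, the 186-nt first segment held 209 (Chx), 38 (Harr) and 146 (WT) reads and the 1305 nt of later sequence 186, 85 and 160. The ratio was 7.88 (6.44 to 9.66) in Chx and 3.14 (2.08 to 4.65) in Harr, so here Harr had the smallest ratio of the 3. Its second segment overlaps an exon of 1700037C18Rik on the other strand, and reads of that gene cannot be told apart without a statement on how strand was handled. Ttc9, a tetratricopeptide repeat gene, was denser in the first segment by 2.13 (Chx), 4.18 (Harr) and 3.44 (WT) times.

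Some later segments held almost nothing. Ly6h, which encodes a GPI-anchored protein of neurons, has 8 segments, and its 135-nt first segment held 11 (Chx), 31 (Harr) and 37 (WT) reads against 1, 3 and 3 in 2128 nt of later sequence. Gdap1l1, a paralog of the mitochondrial fission gene Gdap1, held 9, 39 and 12 reads in its 301-nt first segment and 0, 0 and 1 in the following 1000 nt. Against a floor of 3 counts per library, its first segment was at least 43.2 times denser in Harr. Mrpl20, a mitochondrial ribosomal protein gene whose first segment has 56 nt, held 19, 17 and 41 reads there and 0 in later segments of all 3 libraries, at least 33.7 (Chx), 30.2 (Harr) and 72.7 (WT) times denser. Rhof, a small GTPase gene, held 45, 35 and 20 reads in 2096 nt and 0 in the following 1485 nt, at least 10.6, 8.27 and 4.72 times denser. Both segments of Rhof lie opposite exons of Tmem120b. Gm21992 had 73, 125 and 60 reads in its first segment and 0, 0 and 5 in the rest, and its first segment is also an exon of Rbm4, so these reads may be those of Rbm4.

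Reads are listed for every transcript that contains a segment. A first segment may also belong to a transcript with the same stop codon but an unsplit 3′ UTR. Such a transcript is annotated for 64 of the 119 genes, Naa60, Ttc9, Ly6h, Gdap1l1, Mrpl20 and Rhof among them. It need not end before the intron, and in some genes it is longer than the first segment. Over these 64 genes the ratio of first to later density was 2.36 (Chx), 3.81 (Harr) and 2.78 (WT). Over the 55 genes without one it was 3.08, 11.2 and 2.58. Usp50, whose reads are described next, is among the 55 and held 717 of their 1080 later reads in Chx and 740 of 1057 in WT. Without it the ratio was 9.12 (7.97 to 10.5) in Chx, 16.8 (14.1 to 20.0) in Harr and 8.59 (7.41 to 9.96) in WT, a setting added after the data were seen. These ratios rest on few genes. Of 522 (Chx), 482 (Harr) and 429 (WT) first-segment reads, 6330403K07Rik held 169, 160 and 188, and Gm21992 held 73, 125 and 60.

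A few genes went the other way. In Usp50, an NMD transcript of a ubiquitin peptidase family gene, all 717 (Chx), 92 (Harr) and 740 (WT) reads fell in the third segment, with 0 in the first 2 segments and 0 in the CDS. That segment overlaps the processed pseudogene Gm10774 on the same strand and shares 46.6% of its 25-nt words with transcripts of other genes, so reads of Usp50 and of those genes cannot be told apart. Sugp2, a gene of the SURP domain splicing factors, held 0 (Chx), 3 (Harr) and 0 (WT) reads in a first segment of 728 nt and 2, 20 and 8 in 235 nt of later sequence. In Kcna6, the voltage-gated potassium channel Kv1.6, the 3120-nt first segment was less dense than the 376 nt after it in Chx, at 0.181 times (0.0575 to 0.617), and its interval included equality in Harr and WT. Its 3′ UTR also meets an exon of another gene. Trnp1, a nuclear protein gene of neural progenitors, had a denser first segment in Chx (2.19 times, 1.32 to 3.55), but in WT the ratio was 0.677 (0.235 to 1.60).

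Arc, the activity-induced synaptic gene, held few reads past its stop codon. Its 617-nt first segment held 0 (Chx), 5 (Harr) and 1 (WT) reads, and the other two segments, 1051 nt in all, held 0 in each library, against 415, 71 and 165 CDS reads. A count of 0 allows up to 0.0799 (Chx), 0.293 (Harr) and 0.0945 (WT) RPKM in the later segments. At this depth a difference between first and later segments of Arc was not detectable in Chx or WT.

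In the 173 genes with a first segment of 25 to 55 nt, the ratio of first to later density was 1.26 in Chx (0.811 to 1.88) but 4.97 in WT (4.17 to 5.89), with Harr between them at 3.45 (2.83 to 4.18), without allowance for the reads lost at the junction. With 24 nt taken off the 3′ end of each segment that another segment follows, the ratios were 3.92 (Chx), 10.7 (Harr) and 15.5 (WT). This setting treats reads that cross a junction as lost, while coding exons of 41 to 55 nt held 71.1% (Chx), 60.9% (Harr) and 72.2% (WT) of the predicted reads. These ratios may thus be too high. Without Fkbp1a, the gene of the immunophilin FKBP12, the ratios without this allowance were 1.15 (Chx), 3.56 (Harr) and 3.31 (WT, 2.62 to 4.14). The order of Harr and WT thus turned on 1 gene. The 34-nt first segment of Fkbp1a held 5 (Chx), 9 (Harr) and 68 (WT) reads, and its later 1072 nt held 83, 125 and 179, so the first segment was 12 times as dense as the later one in WT (8.92 to 15.9), against 1.90 (Chx) and 2.27 (Harr). Enc1 showed a like order, with 0, 5 and 15 reads in 31 nt, but in Celf4, an RNA-binding protein gene, the 44-nt first segment was most read in Harr (5, 27 and 3). For first segments of 1 to 24 nt the ratio was 0.367 (Chx), 0.299 (Harr) and 0.546 (WT), from 12, 17 and 25 reads in all, in the range where coding exons hold few counts. Over all 734 genes together, with those short segments included, the later part was denser in 24.5% (Chx), 30.3% (Harr) and 25.2% (WT) of the genes with at least 10 3′ UTR reads. Among all split genes, CDS overlap allowed, it was denser in 52.6%, 46.6% and 49.7%, where segments can also hold reads of the CDS. These shares rest on the 0.5 reads added to each count, which give a short first segment without reads a high density. On the raw counts the direction turned: over the 734 genes the later part was denser in 74.5% of 98 genes (Chx), 75% of 152 (Harr) and 71.0% of 131 (WT). Which part was denser in most of the split genes can therefore not be said from these counts. Summed over all 734 genes, first segments had 2.39 (Chx, 2.24 to 2.56), 1.70 (Harr, 1.59 to 1.82) and 1.99 (WT, 1.87 to 2.12) times the density of later ones. The class over 55 nt held 990 of the 1027 first-segment reads in Chx, 872 of 1006 in Harr and 943 of 1121 in WT.

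**Figure D3:**
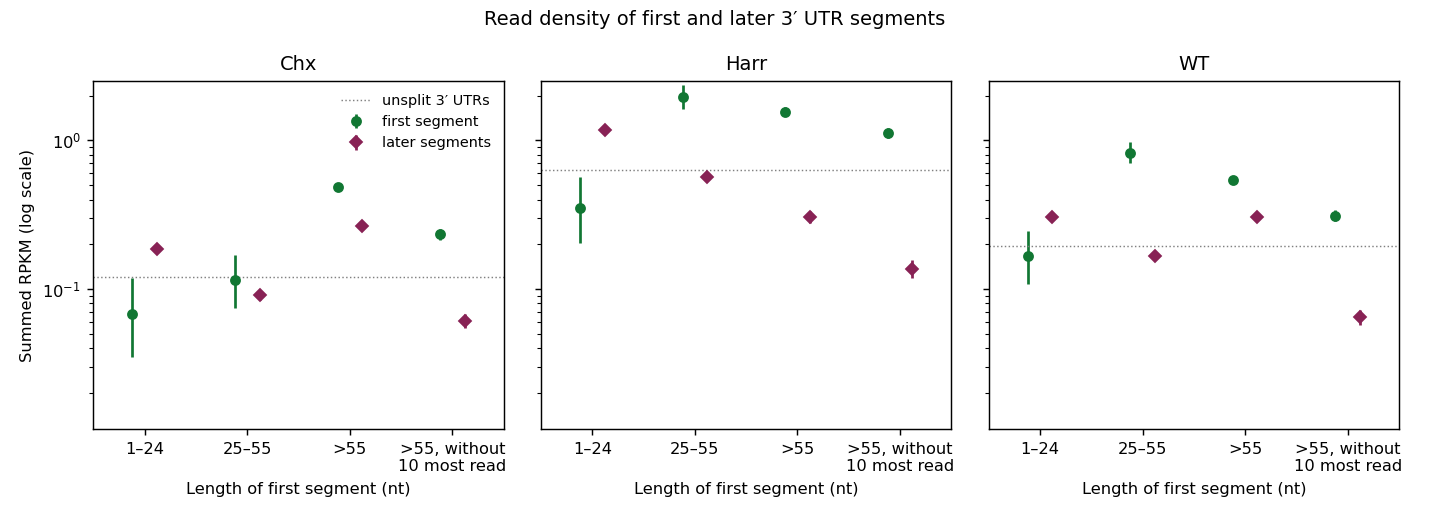
Summed density of first (circles) and later (diamonds) 3′ UTR segments in RPKM on a log scale, by length class of the first segment and library, with 95% Poisson intervals, and the density of unsplit 3′ UTRs as a dotted line. First segments lie above later ones in the class over 55 nt in all 3 libraries, with and without the 10 most read genes, and below them in the class of 1 to 24 nt.

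In the 43 genes with 3 or more segments, the pooled density was compared by segment rank. Without Usp50, and over segments longer than 55 nt, first segments had 0.286 (Chx), 1.00 (Harr) and 0.435 (WT) RPKM, second segments 0.0709, 0.305 and 0.0775, and segments from the third on 0.160, 0.474 and 0.190. These ranks come from partly different genes (21, 36 and 42), because segments of 55 nt or less were left out, so no trend within a 3′ UTR can be read from them. With Usp50 the segments from the third on had 0.570, 0.660 and 0.690 RPKM.

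Between libraries, 3′ UTR reads were set against CDS reads of the same gene as a log2 odds ratio, with 0.5 added to each count, over genes with at least 10 reads of each kind in the pair. From Chx to Harr, the median was 4.02 (3.51 to 4.44) over 192 split genes. It was 4.19 (4.12 to 4.27) over unsplit genes. Of the 192 genes 172 had a ratio raised by 2-fold or more in Harr and 1 a ratio lowered as much, against 88.9% and 1.76% of all genes tested. From WT to Harr the median was 2.93 (2.71 to 3.09) over 206 split genes, of which 177 were at least 2-fold higher (background 84%) and 2 lower (2.45%). Unsplit genes had 2.81 (2.76 to 2.87). From WT to Chx the median was −0.86 (−1.09 to −0.68), with 75 of 167 at least 2-fold lower (background 47.8%) and 4 higher (2%). Unsplit genes had −1.18 (−1.23 to −1.13) in that pair, an interval that does not overlap that of the split genes. Within each of 4 classes of CDS length the intervals did overlap, with medians of −0.67 and −0.80 (split and unsplit) under 600 nt, −0.82 and −1.16 from 600 nt, −1.11 and −1.46 from 1200 nt and −1.58 and −1.49 from 2000 nt, where the order turned. The shares of split genes called lie near those of all genes, which include genes with CDS overlap. Among unsplit genes the shares were further out, with 96.4% raised from Chx to Harr (split 89.6%), 90.9% raised from WT to Harr (85.9%) and 1909 of 3408 lowered from WT to Chx (split 44.9%). Because odds ratios share the CDS counts and each library enters 2 pairs, the pairs are not separate observations.

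**Figure D4:**
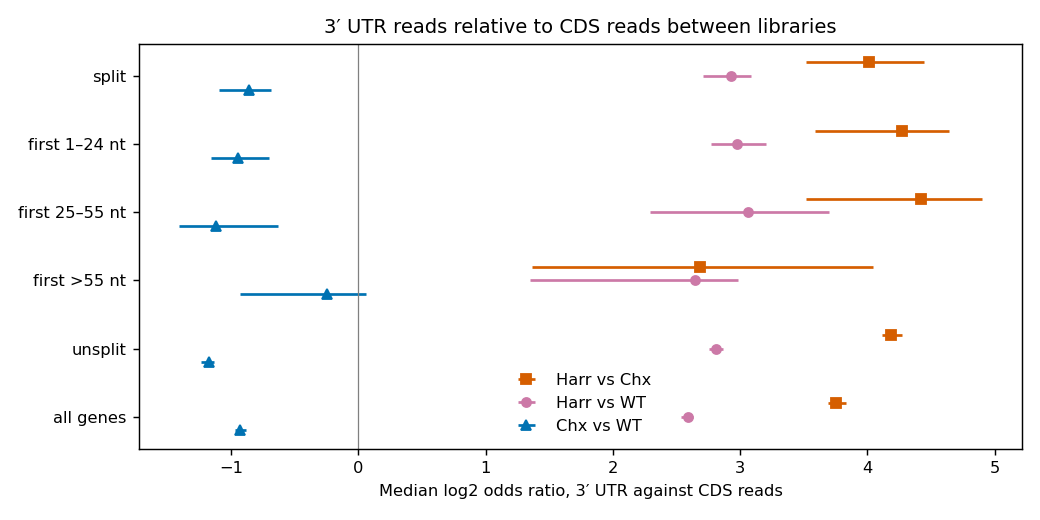
Median log2 odds ratio of 3′ UTR against CDS reads for each pair of libraries, over split genes, over split genes by length of the first segment, over unsplit genes and over all genes, with order-statistic 95% intervals over genes. Values right of 0 are higher in the first library of the pair, and the intervals of split and unsplit genes overlap in the pairs with Harr but not in Chx against WT, where they overlap within each class of CDS length.

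From Chx to Harr, the class with a first segment over 55 nt stood lower, with a median of 2.69 (1.37 to 4.05, 33 genes). The 2 shorter classes had 4.27 (3.59 to 4.65) and 4.42 (3.51 to 4.90), with intervals that overlap that of the class. Within that class the first segments alone had a median of 2.65 (1.44 to 4.62, 24 genes) and the later segments 1.36 (0.48 to 2.95, 15 genes). These intervals overlap, and the medians rest on partly different genes. From WT to Harr the median of the class was 2.65 (1.35 to 2.98), against 2.98 and 3.06 for the shorter classes and 2.81 in unsplit genes. From WT to Chx the class stood higher, at −0.25 (−0.93 to 0.06), against −0.95 and −1.12 for the shorter classes. Unsplit genes had −1.18 (−1.23 to −1.13) in that pair. Later segments of all split genes, taken alone, were at least 2-fold higher in Harr than in Chx in 157 of 173 genes, against 54.6% of the genes with any split 3′ UTR. From WT to Harr 156 of 185 were higher (52.9%), and from WT to Chx 69 of 151 were lower (19.9%). First segments alone were at least 2-fold higher in Harr in 24 of 27 genes against Chx (37.9%) and 28 of 34 against WT (38.7%), and 9 of 26 were lower in Chx than in WT (14.6%). These backgrounds include genes whose segments overlap a CDS and can hold its reads. Such genes alone had later segments at least 2-fold higher in Harr than in Chx in 213 of 505 (42.2%). What sets the shares apart was not tested.

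Of the genes listed for RNA binding, 4 had values in both Chx and Harr, from 4.09 to 8.42 on the log2 scale, where the median over later segments of all split genes was 3.95. Hnrnpa2b1, an hnRNP that also marks RNAs for transport in dendrites, held 5 (Chx), 217 (Harr) and 18 (WT) reads in its 495-nt later segment and 12603, 1451 and 12394 in its CDS. Per nt the whole 3′ UTR stood at 0.131%, 30.9% and 0.382% of the CDS, and the log2 odds ratio of the later segment from Chx to Harr was 8.42 ± 0.62 (counting SE). Srsf2, an SR splicing factor, held 10, 64 and 13 later reads against 3829, 539 and 4267 in the CDS, a log2 odds ratio of 5.45 ± 0.48. Hnrnpd (AUF1) held 4, 48 and 20 later reads (6.99 ± 0.71) and its relative Hnrnpdl 13, 48 and 17 (4.09 ± 0.45). These genes and Arc are the 5 split genes among 25 RNA-binding and NMD-related genes listed for this comparison, and 18 of the other 20 have an unsplit 3′ UTR. Srsf2 lies opposite an exon of Mettl23. In each of the 4 RNA-binding genes the later segment held the most reads in Harr, the shallowest library, although its CDS held the fewest.

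Other named genes had first segments too short to read. Syp (synaptophysin, a synaptic vesicle protein) held 28 (Chx), 376 (Harr) and 50 (WT) reads in its later segment against 28879, 3906 and 22870 in the CDS, which is 0.0643%, 6.39% and 0.145% of the CDS density. The antisense gene Gm14703 lies opposite this segment. Ndfip1, an adaptor of Nedd4 ubiquitin ligases, held 35, 382 and 122 later reads. Gnai3, an inhibitory G protein subunit, held 2, 62 and 9, and Tcaf1, a TRP channel partner, 8, 141 and 49. Gria2, the AMPA receptor subunit that sets calcium permeability, was flatter, with 91, 70 and 94 reads in 7265 nt and a log2 odds ratio of 1.58 ± 0.23. In Ascc1, a subunit of the ASC-1 complex, the later segment held 31 reads in Harr, 4 in WT and 0 in Chx. Relative to the CDS it was at least 106 times higher in Harr than in Chx, against a floor of 3 counts.

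**Figure D5:**
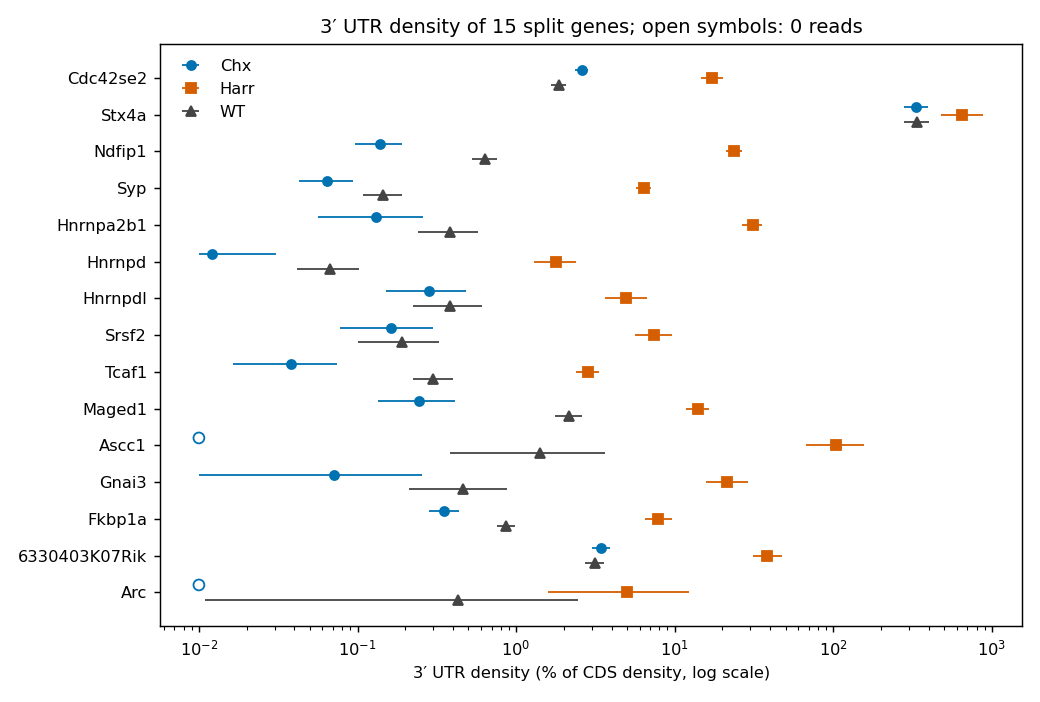
3′ UTR density as a percentage of CDS density, on a log scale, for 15 split genes in Chx, Harr and WT, with exact 95% counting intervals and open symbols at the left edge for 0 reads. The lower bars of Hnrnpd and Gnai3 in Chx are shortened at that edge. Harr lies to the right of Chx and WT in each gene, with the interval of Arc in Harr overlapping that of WT, and Stx4a stands above 100% in all 3 libraries.

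Other genes kept a high 3′ UTR signal in every library. Stx4a, a SNARE protein of the plasma membrane, held 268 (Chx), 135 (Harr) and 248 (WT) reads in its 269-nt later segment, more than the 256, 66 and 234 of its 897-nt CDS. Its 3′ UTR density was 331%, 646% and 335% of that of the CDS, and 9.39% of its 25-nt words occur in transcripts of other genes. Cdc42se2, a small effector of the GTPase Cdc42, held 487, 394 and 383 later reads, or 2.58%, 17.1% and 1.85% of its CDS density. Selenow, which encodes selenoprotein W, held 166, 110 and 163 later reads but 722, 561 and 1611 CDS reads. Its ratio was thus higher in Chx than in WT (log2 1.18 ± 0.17) and hardly differed between Harr and Chx (−0.23 ± 0.19). The later reads of Phlda1, a gene of a pleckstrin-like domain protein, were 87, 78 and 118. Tomm6, of the outer mitochondrial membrane translocase, also ranked among the 10 most read. Of its 25-nt words 72.6% occur in transcripts of other genes, and it overlaps Gm21981.

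At the low end, 3110040N11Rik held 24 (Chx), 2 (Harr) and 19 (WT) later reads and E130114P18Rik 11, 2 and 19, and neither log2 odds ratio from WT to Harr (−1.20 ± 0.99 for the first) stood clear of 0. Nabp1, a single-stranded DNA binding protein gene, held 17, 6 and 12 later reads (−0.52 ± 0.69 from Chx to Harr). From WT to Chx, Taf1d (20 against 8 later reads) and the kinase-like gene Vrk3 (16 against 6) had ratios of 1.54 ± 0.60 and 1.41 ± 0.68. A segment of Taf1d holds 2 snoRNAs and a miRNA. The lowest values of that pair were −3.26 ± 0.73 in Raly, an hnRNP gene, −3.09 ± 0.40 in Maged1 and −3.05 ± 0.84 in Anks3. Yipf1, a membrane protein gene of the secretory pathway, had 1, 20 and 3 later reads and a log2 odds ratio of 5.86 ± 0.85 from WT to Harr.

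The median CDS level was 1.40 (Chx), 1.00 (Harr) and 1.50 (WT) RPKM over 734 split genes and 1.75, 1.16 and 1.71 over unsplit genes, the intervals overlapping in each library. Annotated NMD transcripts had medians of 5.27 (0.952 to 7.94), 2.70 (0.762 to 4.61) and 4.41 (1.25 to 7.19) RPKM, so no lower CDS level was seen for them. CDS exons are shared with other transcripts of the gene, however, and reads cannot be given to one of them. Between libraries the median log2 CDS ratio was −0.13 (−0.22 to −0.06) from Chx to Harr, with −0.03 (−0.05 to −0.01) in unsplit genes, an interval that does not overlap. In split genes it was −0.08 (−0.19 to 0.00) from WT to Harr and 0.05 (−0.01 to 0.08) from WT to Chx. Unsplit genes had 0.01 (−0.01 to 0.03) and 0.02 (0.02 to 0.03) in these pairs, with intervals that overlap. The CDS level was at least 2-fold lower in Harr than in Chx in 70 of 438 split genes (background 14.7%) and higher in 24 (6.48%). Against WT, Harr was lower in 81 of 441 (15.6%) and higher in 29 (6.95%), and Chx was lower in 13 of 456 (1.49%) and higher in 8 (1.46%). From Chx to Harr the CDS ratio followed CDS length alike in both sets. It ran from −0.59 under 600 nt to 0.45 above 2000 nt in split genes and from −0.75 to 0.45 in unsplit genes. Within each of the 4 classes of CDS length, the intervals of split and unsplit genes overlapped.

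The 5 split genes with the most CDS reads spanned a wide range past the stop codon. Maged1, a neuronal MAGE family gene, held 62576 (Chx), 11663 (Harr) and 52528 (WT) CDS reads and 14, 149 and 103 later 3′ UTR reads. Zwint, a kinetochore protein gene, held 28309, 2282 and 24620 CDS reads and only 1, 14 and 8 later reads in 1891 nt. Syp, Tcaf1 and Ndfip1 complete the 5.

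The last coding segment, which ends in the stop codon, was also compared, for segments of at most 200 nt. It held 78.3% (Chx), 117% (Harr) and 88.3% (WT) of the reads predicted from its length when the first 3′ UTR segment had 1 to 24 nt. With 25 to 55 nt it held 107%, 148% and 126%, with over 55 nt 74.3%, 107% and 97.7%, and in unsplit genes 81.6%, 152% and 106%. In all 4 sets Harr held the largest share and Chx the smallest.

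The machinery of NMD was itself translated in these neurons. All 16 NMD and exon junction complex genes listed had CDS reads in each library, from 2.74 to 112.5 RPKM in Chx, 1.99 to 76.4 in Harr and 2.42 to 126.7 in WT. From Chx to Harr 1 of the 16 was at least 2-fold higher and 3 were lower, against 6.48% and 14.7% of all genes, with a median log2 ratio of 0.16, where the median of all genes was −0.03. Of 5 termination and ribosome rescue genes, 1 was at least 2-fold lower (14.7% of all genes) and none higher. The list holds 2 split genes. Upf1, the helicase at the centre of NMD, has a 3-nt first segment and held 2 (Chx), 18 (Harr) and 9 (WT) later reads, and its 3′ UTR meets an exon of another gene. Casc3, a core protein of the exon junction complex, held 0, 6 and 8 later reads.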

How the data were processed

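Monosomes from MNase-treated lysates were isolated on sucrose gradients, depleted of ribosomal RNA and sequenced. The authors removed ribosomal reads and duplicates, aligned to mm10 and counted reads of 25 to 100 nt per UTR or CDS segment with Plastid, by the 5′ end without offset. The study's methods name TopHat for one analysis of ribosome profiling reads and Rsubread for reads counted with Plastid, and the table headers name neither. The deposited tables give whole-number counts, a coverage density (counts per nt) and RPKM for each segment. Counts were used, and RPKM was recomputed with each library's total count. Transcript IDs were matched to GENCODE genes (99.0% with version, 99.3% without). A read in an exon shared by transcripts is listed for each of them. The first 3′ UTR segment begins after the stop codon.

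Each treatment had 1 library, so no test between treatments was made. Intervals are exact Poisson or Clopper-Pearson at 95%, Wilson for shares of genes and order statistics for medians over genes. They cover counting error or the spread over genes only. A count of 0 was given a floor of 3 counts per library. Genes needed at least 10 reads, 0.5 was added before logs, and changes of at least 2-fold were counted. On simulated counts, a summed density ratio with lengths weighted by expected density and the median log2 odds ratio were recovered. The summed ratios reported here use plain lengths and were not simulated. Python 3.11.15, numpy 2.4.6, pandas 2.3.3, scipy 1.17.1 and matplotlib 3.10.9 were used.

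The split genes and all gene lists were chosen with earlier results of these data known. Genes were named by rule: the 10 with the most 3′ UTR reads, the 5 highest and 5 lowest later-to-first densities among genes with at least 100 3′ UTR reads, the RNA-binding list, the 3 highest and 3 lowest log2 odds ratios of later segments per pair among genes with at least 20 later reads, and the 5 with the most CDS reads. An item that the rule names is not reported here. Rankings on sums of the 3 libraries select extreme values. Mtln, Ttc9, Ly6h, Gdap1l1, Mrpl20, Sugp2, Kcna6, Trnp1, Hrk, Myl6, Gria2, Upf1 and Casc3 fall outside the rule and were chosen after their values were seen.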

Additional observations from a re-analysis of the deposited data

How the results depend on the processing

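With 1 library per treatment, differences between libraries cannot be told apart from differences between dishes or preparations. No paired analysis was possible because each treatment has 1 library. Of 189 alternative values 141 stayed within the interval of the reported value (counts, within 1.5 times of it), 45 moved further and 3 reversed. The 3 are the share of genes with a denser later part with no reads added, an alternative chosen after seeing the data: 74.5% (Chx), 75% (Harr) and 71.0% (WT). Taking each gene's most read transcript gave 725 split genes. Leaving out a replicate was not possible.

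The density ratio of later to first segments moved with the added count, the read minimum and the short first segments. In the order Chx, Harr and WT, its median log2 value was −2.96, −2.93 and −2.91 with a minimum of 1 read, −0.78, −0.22 and −0.68 with 30 reads and −3.94, −3.46 and −3.78 with 5 reads added. Over first segments longer than 55 nt it was −2.92, −3.05 and −3.58, and with 24 nt taken off at junctions −2.89, −3.12 and −3.37. These last 2 settings were chosen after seeing the data. With segments of at least 30 nt it was −2.49 in Harr and −2.68 in WT. The share of genes with a denser later part was 11.4%, 15.3% and 11% with 1 read, 37.2%, 42.1% and 34.4% with 30 reads, 6.12%, 7.89% and 7.63% with 5 reads added, 10%, 12% and 9.52% over 55 nt, and 10.5%, 9.43% and 8.70% with 24 nt taken off. With segments of at least 30 nt it was 17.0% in Harr and 14.6% in WT.

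The count of genes with a 3′ UTR to CDS ratio at least 2-fold higher depends on how many genes pass the read minimum. It was 313 with a minimum of 1 read and 90 with 30 reads for Harr against Chx, and 304 and 103 for Harr against WT. For Chx against WT it was 28 and 1, and 2 both with 5 reads added and without genes that meet another gene's exon. With 1 read, the median log2 odds ratio for Harr against WT was 2.64 over the 3′ UTR and 2.69 over later segments, and for Chx against WT −1.63 over first segments.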
